A study of Mus musculus with 8 samples.

Results

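The genes described here are a list of 37 genes that mark fat cells and carry out their main work: secreting hormones, storing triglyceride, making fatty acids and releasing them again. The members were given by name, and they and the further lists were chosen with earlier results of these data known. Counts of called genes in them are therefore not independent support. A gene was measured where the array had a probe set annotated to that gene alone. Of the 37, 33 had at least 1 such probe set, among 18161 genes named in this way on the array. Probe sets of Cfd, Plin1, Acsl1 and Adrb3 were not analysed here. The 33 genes had 66 probe sets, of which 54 were tested. A probe set was tested where it exceeded 6.87, the median of all deposited log2 values, on at least 2 of the 8 arrays. That left 32 of the 33 genes, of 12354 genes tested in all, each gene read by its brightest tested probe set. Aqp7 was below the filter, and Lep and Pck1 passed it only through the wild-type arrays. The group where these 2 genes were high thus brought them into the test.

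The data were single-colour Affymetrix arrays of total RNA from dissected ankle joints of mice aged 5 months. Of the 8 arrays, 2 were from wild-type mice, 3 from mice that overexpress a human TNF-alpha transgene with normal sphingosine kinase 1 (hTNF), and 3 from mice with the same transgene whose sphingosine kinase 1 is labelled functionally null (hTNF labelled Sphk1 null). There was no group with the Sphk1 null label and no transgene. The strain, the sex of the mice, the promoter that drives the transgene and the Sphk1 allele are not given in the sources used here. Each label names the joint of a mouse but does not say that replicates were separate mice, so the p-values measure only the spread between these arrays, and the number of arrays limits the precision.

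White adipocytes hold triglyceride in a single large lipid droplet. PPAR-gamma and C/EBP-alpha drive their differentiation and keep their genes active, while ChREBP and SREBP1 switch on fatty acid synthesis in response to sugar and insulin. Fatty acids enter the cell from lipoproteins or are made from glucose, are joined to glycerol phosphate, and leave again through a series of lipases. In a limb joint, fat cells lie under the skin, in the marrow and in fat pads beside the synovium. TNF is a cytokine long known to act on cultured adipocytes, and sphingosine kinase 1 makes the lipid mediator sphingosine 1-phosphate.

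To show the regulatory sequence next to the measurements, the 200 bases before the RefSeq transcription start are printed for 6 genes on build GRCm38.p6. They are Lep at chr6:29060021-29060220 (+ strand), Adipoq at chr16:23146336-23146535 (+ strand), Thrsp at chr7:97417551-97417750 (- strand), Cidec at chr6:113434765-113434964 (- strand), Cebpa at chr7:35119093-35119292 (+ strand) and Acly at chr11:100528001-100528200 (- strand). The first 4 genes were lower in hTNF joints and the other 2 did not pass the test. Each runs 5′ to 3′ on the strand of its gene, and capitals mark a match to 1 of the motifs named after the sequences.
Lep: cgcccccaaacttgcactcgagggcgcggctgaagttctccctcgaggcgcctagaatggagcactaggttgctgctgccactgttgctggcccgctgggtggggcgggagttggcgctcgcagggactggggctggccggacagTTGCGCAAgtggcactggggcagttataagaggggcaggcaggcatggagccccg
Adipoq: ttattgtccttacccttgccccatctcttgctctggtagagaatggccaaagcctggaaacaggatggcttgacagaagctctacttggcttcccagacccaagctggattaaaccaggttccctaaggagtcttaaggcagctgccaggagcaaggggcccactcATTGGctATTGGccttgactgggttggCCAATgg
Thrsp: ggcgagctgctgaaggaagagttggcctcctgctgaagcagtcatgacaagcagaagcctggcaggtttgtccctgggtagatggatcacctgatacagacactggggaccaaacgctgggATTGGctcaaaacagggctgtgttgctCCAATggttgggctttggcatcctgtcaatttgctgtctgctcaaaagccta
Cidec: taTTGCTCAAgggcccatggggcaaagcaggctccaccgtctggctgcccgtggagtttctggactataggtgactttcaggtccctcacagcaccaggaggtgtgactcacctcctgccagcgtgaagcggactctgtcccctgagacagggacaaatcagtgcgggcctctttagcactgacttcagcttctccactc
Cebpa: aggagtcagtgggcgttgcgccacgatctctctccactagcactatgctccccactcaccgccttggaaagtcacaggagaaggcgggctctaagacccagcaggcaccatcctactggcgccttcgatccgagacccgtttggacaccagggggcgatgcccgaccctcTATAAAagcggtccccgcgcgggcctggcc
Acly: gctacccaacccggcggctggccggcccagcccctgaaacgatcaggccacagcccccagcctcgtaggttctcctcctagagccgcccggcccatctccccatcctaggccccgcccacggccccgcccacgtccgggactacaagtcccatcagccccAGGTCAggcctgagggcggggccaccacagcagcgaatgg

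The motifs searched, on both strands, in windows reaching from 250 bases before to 50 after the start, were these. TATAAA is the TATA box, CCAAT the site of NF-Y. CACGTG is an E box. AGGTCA is a single unit of the sites that nuclear receptors read. TTGCNNAA is read by C/EBP factors, and TCACNCCAC is a stretch of the SREBP1 site. Of the 32 genes tested, 23 had a window in the RefSeq table, with 33 windows between them, since a gene can have several starts. The pattern TTGCNNAA was in 9.09% of these 33 windows and in 10.8% of all 32851 windows in the table. The genes holding it were Lep, at position -55 from the start, Cidec, at -198, and Pparg. CCAAT was in 42.4% of the 33 windows and 37.4% of all windows. AGGTCA was in 18.2% against 16.3%, and CACGTG in 6.06% against 7.15%. TATAAA was in 6.06% against 13.6%, and 1 of its matches lies at -30 of Cebpa. TCACNCCAC was in 3.03%, which is 1 window, that of Mlxipl, against 1.24%. These are matches of letters, and no binding was measured.

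Several features of the arrays touch the results. Sphk1 itself read 7.25 and 7.16 in wild type, 8.63, 8.65 and 8.28 in hTNF, and between 9.94 and 10.22 on the arrays labelled Sphk1 null. It was higher in the arrays labelled null than in hTNF (log2 difference 1.53, limma adjusted p = 0.0164), while its other probe set, which was too dim to pass the filter, lay between 6.12 and 6.74 in every sample (-0.11, limma adjusted p = 0.904 in the fit without the filter). Neither shows a lower transcript level in the arrays labelled null, and the level cannot check a functional null if the probe set lies outside the altered part. On 3 arrays (wild type 2, hTNF 1 and null-labelled 1) both Xist and Y-linked signal were present. The fat-cell genes are summarised with and without these 3 arrays, a comparison that leaves 1 wild-type array, assumed to vary like the other groups. The arrays left differed by group in sex-linked signal. Wild type 1 read 7.45 for Xist and 8.86 for the Y-linked gene Eif2s3y. Null-labelled 2 and 3 read 12.89 and 13.1 for Xist and 3.46 each for Eif2s3y. Of the hTNF arrays left, hTNF 2 read 7.29 and 8.75, and hTNF 3 read 13.16 and 3.81.

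In hTNF joints, transcripts of fat cells were lower across nearly every step of fat storage. Of the 32 genes tested, 26 fell and 0 rose against wild type at a limma adjusted p under 0.05, adjusted over all probe sets tested, where 19.6% of all genes tested fell and 16.5% rose. Every hTNF array was below both wild-type arrays in 27 of the 32, against 35.1% of all genes, and above both in 3, against 28.7%. The difference was below 0 in 29, against 52.2%. Their median log2 difference was -1.13, against -0.02 over all genes. As the genes were chosen with earlier results of these data known, these counts are not independent support. Of the 32, 20 were called and lower by at least 2-fold, Lep and Pck1 among them. Over all genes, 19.6% were called lower by any amount, and the share lower by at least 2-fold was not counted. The largest fitted drop was that of Lep, whose transgenic arrays were all below the filter value, and the smallest that of the brightest probe set of Car3, whose other probe sets fell further. Without the filter on low values, 26 of 33 genes fell, against 13.0% of all genes, and 0 rose, against 10.4%, with Aqp7 among them and Car3 no longer called. Without the 3 arrays of mixed sex-linked signal, which leaves 1 wild-type array, the median was -1.3, against -0.02 over all genes. The 6 not called with all arrays were Cebpa, Srebf1, Cidea, Bscl2, Acly and Elovl6. In whole joints, fewer fat cells and less RNA per fat cell cannot be told apart.

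**Figure D1:**
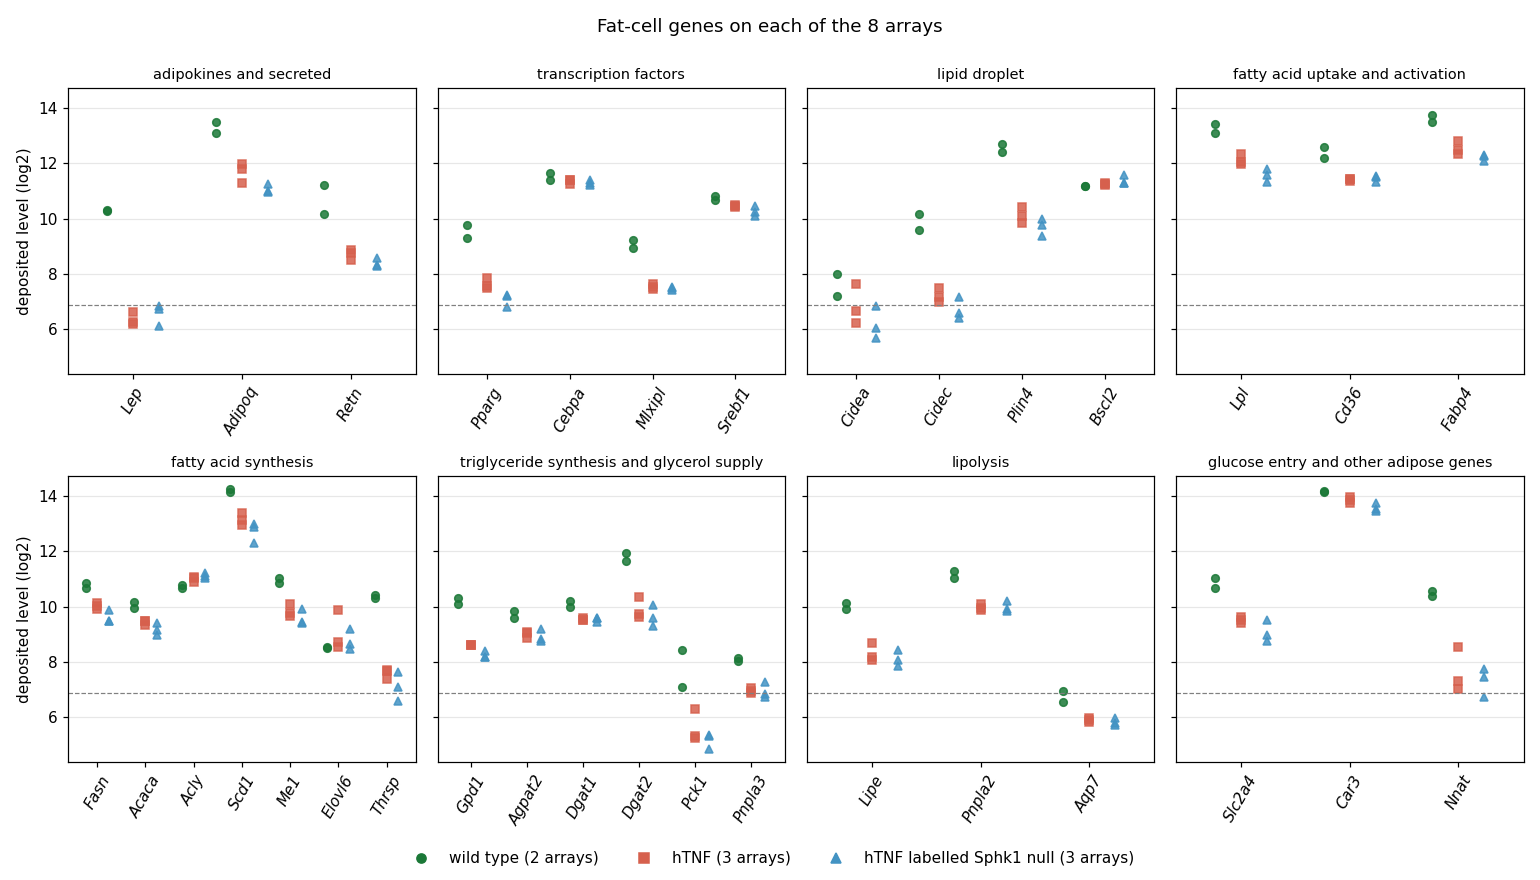
Deposited log2 level (vertical axis) of the 33 measured genes on each of the 8 arrays, in 8 panels by role. Circles are wild type, squares hTNF, triangles hTNF labelled Sphk1 null, and the dashed line is the filter value of 6.87. Lep lies between 10.29 and 10.32 in wild type and at or below 6.83 on all 6 transgenic arrays, while the values of Cebpa overlap between all 3 groups and Acly lies lowest in wild type.

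Among the adipokines, the hormones that fat cells release, all 3 genes tested fell, with Lep passing the filter only through the wild-type arrays. Lep encodes leptin, the hormone that reports the size of fat stores to the brain. It read 10.32 and 10.29 in wild type, 6.17, 6.60 and 6.26 in hTNF, and 6.83, 6.72 and 6.10 in hTNF labelled Sphk1 null. All 6 transgenic arrays were below the filter value, so its drop of 3.96 ± 0.22 (SE, as in every such value here) on the log2 scale (adjusted p = 1e-05, limma) reaches down to the dim range of the array. Adipoq encodes adiponectin, a hormone that raises insulin sensitivity. Its values were 13.11 and 13.51 in wild type, 11.99, 11.30 and 11.79 in hTNF, and 10.99, 11.25 and 10.98 in null-labelled joints. The 3 groups did not overlap, and the fall from wild type to hTNF was 1.62 ± 0.20, or 3.07-fold (limma adjusted p = 0.000365). Retn, which encodes resistin, an adipocyte hormone in mice, read 10.15 and 11.20, then 8.74, 8.50 and 8.86, then 8.29, 8.56 and 8.31 in the same order of groups. The wild-type arrays lay further apart than the arrays of either transgenic group, and both stayed above every transgenic array. The difference of Retn was -1.98 ± 0.26 (limma adjusted p = 0.000544).

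Of the transcription factors, Pparg and Mlxipl fell, while Cebpa and Srebf1 did not pass the test. Pparg, the nuclear receptor required to form fat cells, read 9.30 and 9.75 in wild type and 7.85, 7.56 and 7.48 in hTNF. In null-labelled joints it read 7.22, 7.20 and 6.79, below every hTNF array. Its difference between hTNF and wild type was -1.90 ± 0.19, a fold of 3.72 (limma adjusted p = 0.000151). Mlxipl encodes ChREBP, the sugar-responsive activator of lipogenic genes. It read 9.21 and 8.92 in wild type and between 7.40 and 7.63 on all 6 transgenic arrays, with a difference of -1.54 ± 0.13 (limma adjusted p = 5.7e-05). Cebpa, the partner of PPAR-gamma in keeping the adipocyte state and also a factor of myeloid cells, read 11.66 and 11.41, then 11.25, 11.38 and 11.41, then 11.41, 11.23 and 11.29. The groups overlapped, with a difference of -0.19 ± 0.11 (limma adjusted p = 0.218). Srebf1, which encodes SREBP1, read 10.80 and 10.66, then 10.42, 10.46 and 10.50, then 10.46, 10.24 and 10.11. Wild type lay above both transgenic groups, by a small margin that missed the threshold (-0.27 ± 0.12, limma adjusted p = 0.115) and passed it without null-labelled array 1 (0.0401). Among other factors that promote fat cell formation, 9 of 14 fell and 3 rose, where 19.6% of all genes fell and 16.5% rose. Klf15 (-1.52 ± 0.15), Ebf2 (-1.38 ± 0.15) and Klf5 (-1.36 ± 0.40) fell most, although the call of Klf5 ended without wild type 1 (limma adjusted p = 0.139), wild type 2 (0.0823), hTNF 2 (0.0731) or hTNF 3 (0.0838), and another of its probe sets gave -0.36 (0.494). Cebpb (1.04 ± 0.15) and Cebpd (0.63 ± 0.17), early factors of adipogenesis that are also induced in inflamed tissue, rose, as did Stat5a (0.52 ± 0.13). The call of Cebpd ended without wild type 1 (0.0692), wild type 2 (0.113) or hTNF 3 (0.0703), and that of Stat5a without wild type 2 (0.0936).

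Genes of the lipid droplet were split. Cidec, whose protein fuses droplets into one, read 10.15 and 9.59 in wild type, 7.16, 7.47 and 6.96 in hTNF, and 7.17, 6.38 and 6.59 in null-labelled joints. Both wild-type arrays stood above all others, and the difference was -2.67 ± 0.26, a fold of 6.38 (limma adjusted p = 0.000121). Plin4, a droplet coat protein, read 12.71 and 12.41, then 10.10, 10.41 and 9.85, then 9.98, 9.77 and 9.35. It fell by 2.44 ± 0.21 (limma adjusted p = 6.44e-05). Bscl2 encodes seipin, which shapes new droplets at the endoplasmic reticulum and is made in many cell types. It read 11.19 and 11.19, then 11.23, 11.29 and 11.26, then 11.57, 11.28 and 11.28, and its difference of 0.07 ± 0.11 did not pass the test (limma adjusted p = 0.672). Cidea, a droplet protein of brown fat and of sebaceous glands in skin, read 7.98 and 7.18, then 7.63, 6.64 and 6.21, then 6.81, 5.67 and 6.02. The groups overlapped (-0.75 ± 0.45, limma adjusted p = 0.24).

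Within the transgenic groups, Cidea and Elovl6 were highest on the arrays with the most skin signal. A list of 19 keratinocyte genes averaged 7.94 and 7.16 in wild type, 10.84, 6.55 and 8.30 in hTNF, and 9.47, 6.73 and 8.71 in null-labelled joints. The highest transgenic values of Cidea were on hTNF 1 and null-labelled 1, where the skin level was highest in each group. Elovl6, a fatty acid elongase also made in sebaceous glands, read 8.49 and 8.53, then 9.86, 8.55 and 8.71, then 9.20, 8.45 and 8.64, again highest on these arrays. Its difference of 0.53 ± 0.36 was the largest above 0 (limma adjusted p = 0.304), and became 0.12 without hTNF 1 and 0.24 with the skin level as a covariate. For Cidea the difference became -1.06 with the covariate (limma adjusted p = 0.0292), -1.16 without hTNF 1 (0.055) and -1.56 without the 3 arrays of mixed sex-linked signal (0.00842). The transgenic values of Cidec lay between 6.38 and 7.47, with the highest on hTNF 2, the array with the least skin signal. Among the null-labelled arrays, however, Cidec read 7.17, 6.38 and 6.59, in the same order as the skin level. Cidea and Elovl6 were singled out after their values were seen, and hTNF 1 and null-labelled 1 are also arrays of mixed sex-linked signal. The part of skin in these values was not tested.

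**Figure D2:**
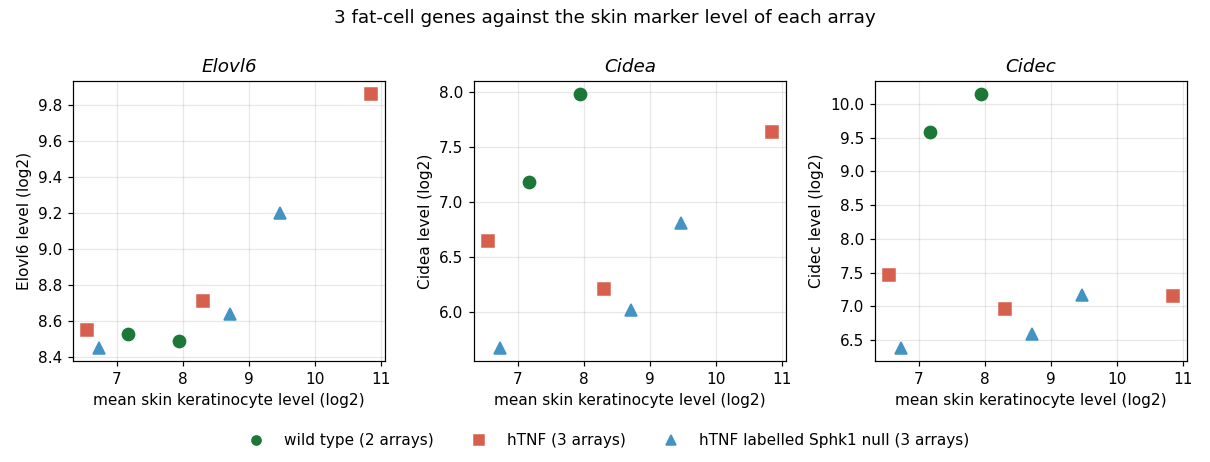
Level (log2, vertical axes) of Elovl6, Cidea and Cidec on each array against the mean level of 19 keratinocyte genes (log2, horizontal axes). Circles are wild type, squares hTNF, triangles hTNF labelled Sphk1 null; the array with a skin mean of 10.84 holds the highest Elovl6 value, 9.86, while both wild-type values of Cidec, at skin means of 7.16 and 7.94, lie above those of all other arrays.

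Genes that bring fatty acids into the fat cell fell together, all 3 of the genes tested. Lpl, the lipase that frees fatty acids from lipoproteins at the capillary wall, read 13.09 and 13.42 in wild type, 12.33, 11.98 and 12.06 in hTNF, and 11.58, 11.79 and 11.34 in null-labelled joints. The 3 groups again did not overlap (-1.13 ± 0.16 for hTNF against wild type, limma adjusted p = 0.000686). Cd36, a fatty acid receptor of fat, muscle, endothelium and macrophages, read 12.18 and 12.58, then 11.45, 11.42 and 11.36, then 11.56, 11.33 and 11.50. Its transgenic groups overlapped with each other and lay below wild type (-0.97 ± 0.12, limma adjusted p = 0.000462). Fabp4, the fatty acid carrier of the adipocyte cytosol, read 13.50 and 13.75, then 12.82, 12.34 and 12.47, then 12.27, 12.32 and 12.07. It fell by 1.08 ± 0.15 (limma adjusted p = 0.000571), although another of its probe sets gave -0.40 and was not called (0.148). Of 17 further genes of fatty acid uptake and lipoprotein handling, 5 fell and 2 rose, against 19.6% and 16.5% of all genes, and the median of the list was 0.07. Fabp3, the carrier of muscle and heart, fell by 2.61 ± 0.30, Cavin2, a caveolar coat protein, by 1.59 ± 0.16, and Gpihbp1, which holds lipoprotein lipase on the capillary, by 1.27 ± 0.10. Fabp5, the carrier of macrophages and skin, read 10.26 and 11.05 in wild type and between 11.94 and 12.67 on the transgenic arrays, and rose by 1.65 ± 0.26. Acsl5, which activates fatty acids, rose by 0.64 ± 0.10.

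Of the 7 genes of fatty acid synthesis, 5 fell. Thrsp, the Spot 14 protein that follows lipogenesis, read 10.41 and 10.30 in wild type, 7.38, 7.65 and 7.70 in hTNF, and 7.63, 7.07 and 6.59 in null-labelled joints. With its brightest probe set it fell by 2.78 ± 0.25 (6.86-fold, limma adjusted p = 8.87e-05), and another tested probe set gave -0.01 (0.965). Me1, the malic enzyme that supplies NADPH, read 11.02 and 10.85, then 10.08, 9.78 and 9.65, then 9.90, 9.40 and 9.46 (-1.10 ± 0.18, limma adjusted p = 0.00146). Scd1, the desaturase that makes oleate, read 14.14 and 14.25, then 13.39, 12.97 and 13.15, then 12.98, 12.88 and 12.32, and fell by 1.03 ± 0.19 (limma adjusted p = 0.00268). Fasn and Acaca, the fatty acid synthase and the acetyl-CoA carboxylase that feeds it, fell less. Fasn read 10.67 and 10.86, then 10.01, 9.91 and 10.14, then 9.89, 9.47 and 9.49 (-0.75 ± 0.15, limma adjusted p = 0.00427). Acaca fell by 0.61 ± 0.14 (limma adjusted p = 0.0103), a call that ended without wild type 2 (-0.50, 0.0836). Acly, the ATP citrate lyase that makes cytosolic acetyl-CoA in most cells, went the other way. It read 10.67 and 10.78 in wild type, 10.91, 11.04 and 11.09 in hTNF, and 11.21, 11.04 and 11.10 in null-labelled joints, with wild type below every other array. The difference of 0.29 ± 0.10 just missed the threshold (limma adjusted p = 0.0513), passing it without hTNF 1 (0.0424) or null-labelled 1 (0.0317), and 1 of its other probe sets rose by 0.51 ± 0.12 (0.011). Among 20 further genes of lipid synthesis, 6 fell and 4 rose, with a list median of 0.0, so the counts lie near the 19.6% and 16.5% of all genes. Lpin1 (-1.49 ± 0.15), Acacb (-1.47 ± 0.20) and Gpat3 (-1.43 ± 0.19) fell most. Fads2 (0.94 ± 0.21), Elovl1 (0.68 ± 0.13) and Slc25a1, the citrate carrier (0.49 ± 0.13), rose. The call of Fads2 ended without wild type 2 (0.0574), and that of Slc25a1 without wild type 1 (0.0588), wild type 2 (0.121), hTNF 2 (0.0697) or hTNF 3 (0.0671).

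All 6 genes of triglyceride synthesis and glycerol supply fell, with Pck1 passing the filter only through the wild-type arrays. Pck1, which makes glycerol phosphate from pyruvate in fat, read 8.42 and 7.08 in wild type, 5.31, 6.27 and 5.24 in hTNF, and 5.35, 5.29 and 4.83 in null-labelled joints. All transgenic arrays were below the filter value and the wild-type arrays lay far apart, so that its difference of -2.14 ± 0.42 (limma adjusted p = 0.00401) was -1.47 without wild type 1 (0.0444) and -2.81 without wild type 2 (0.00247). Dgat2, which adds the last fatty acid to triglyceride, read 11.96 and 11.65, then 10.35, 9.73 and 9.61, then 10.07, 9.29 and 9.59. Wild type was well above both transgenic groups, which overlapped (-1.91 ± 0.26, 3.75-fold, limma adjusted p = 0.000637). Gpd1, the dehydrogenase that makes glycerol phosphate from a glycolytic intermediate, read 10.32 and 10.10, then 8.61, 8.61 and 8.61, then 8.39, 8.16 and 8.18. The 3 groups did not overlap, and the fall to hTNF was 1.60 ± 0.12 (limma adjusted p = 3.25e-05). Pnpla3, a droplet protein induced by feeding, read 8.14 and 8.03 in wild type and 6.73 to 7.25 on the transgenic arrays (-1.14 ± 0.17, limma adjusted p = 0.00101). Dgat1 fell by 0.56 ± 0.11 (limma adjusted p = 0.00369) and Agpat2, an acyltransferase of an earlier step, by 0.71 ± 0.15 (0.00666). The call of Agpat2 ended without wild type 1 (-0.59, 0.0718).

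The lipases fell as well. Lipe encodes hormone-sensitive lipase and Pnpla2 the adipose triglyceride lipase that acts before it. Lipe read 10.13 and 9.92 in wild type, 8.08, 8.69 and 8.17 in hTNF, and 8.44, 7.85 and 8.05 in null-labelled joints, a drop to hTNF of 1.71 ± 0.22 (limma adjusted p = 0.00043). Pnpla2 read 11.30 and 11.05, then 9.89, 10.08 and 9.95, then 10.22, 9.93 and 9.83 (-1.20 ± 0.14, limma adjusted p = 0.000281). In both genes the transgenic groups overlapped with each other, and every transgenic array was below both wild-type arrays. Aqp7, the glycerol channel of the adipocyte, read 6.93 and 6.54, then 5.83, 5.87 and 5.96, then 5.70, 5.96 and 5.78, in the dim range throughout. Fitted without the filter it fell by 0.85 ± 0.15 (limma adjusted p = 0.00373). Of 10 further genes that carry out or control lipolysis, 4 fell and 3 rose, against 19.6% and 16.5% of all genes, with a list median of -0.38. G0s2, the inhibitor of adipose triglyceride lipase, read 10.17 and 9.83 in wild type and 8.27, 7.66 and 7.81 in hTNF, and fell by 2.09 ± 0.20. Mgll, the monoglyceride lipase, fell by 1.60 ± 0.16, with another of its probe sets at -0.16 (limma adjusted p = 0.522). Plin5 fell by 0.68, a call that ended without wild type 1 (0.0527). Hcar2, a receptor of fat cells and neutrophils (0.57), and the droplet proteins Plin3 (0.44) and Plin2 (0.41), found in many cells, rose. The call of Plin2 ended on leaving out any 1 of the wild-type or hTNF arrays (limma adjusted p from 0.0601 to 0.168). That of Hcar2 ended without wild type 1 (0.122), wild type 2 (0.155), hTNF 1 (0.0908), hTNF 3 (0.0941) or null-labelled 3 (0.0606), and that of Plin3 without wild type 1 (0.114).

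The 3 remaining genes fell. Nnat, which encodes neuronatin, a membrane protein of adipose and nervous tissue, read 10.55 and 10.39 in wild type, 7.0, 8.53 and 7.32 in hTNF, and 7.74, 7.45 and 6.73 in null-labelled joints. The hTNF arrays were far apart and still all below wild type (-2.85 ± 0.42, 7.23-fold, limma adjusted p = 0.000951). Slc2a4 encodes GLUT4, the insulin-responsive glucose transporter of fat and muscle. It read 11.04 and 10.67, then 9.51, 9.62 and 9.39, then 9.51, 8.75 and 8.96 (-1.35 ± 0.21, limma adjusted p = 0.00127). Car3, a carbonic anhydrase abundant in fat and slow muscle, read 14.14 and 14.20, then 13.96, 13.86 and 13.75, then 13.76, 13.53 and 13.48. Near the top of the scale it fell by 0.31 ± 0.09 (limma adjusted p = 0.03). Its other 3 probe sets fell by 0.93, 1.40 and 1.62. The call of the brightest ended without wild type 1 (0.0911), wild type 2 (0.137), hTNF 2 (0.0675) or hTNF 3 (0.1). Of 11 genes of the insulin response, 8 fell and 1 rose, against 19.6% and 16.5% of all genes. Grb14, an inhibitor of the insulin receptor (-1.91 ± 0.27), Trarg1, which helps GLUT4 trafficking (-1.78 ± 0.20), and Rbp4, the retinol carrier (-1.74 ± 0.16), fell most. Ptpn1, the phosphatase that turns off the insulin receptor, read 10.86 and 10.90 in wild type and 11.63, 11.79 and 11.82 in hTNF, and rose by 0.87 ± 0.09.

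Genes that mark fat cells beyond the 37 moved the same way. Of 18 tested, 14 fell and 1 rose, against 19.6% and 16.5% of all genes, with a median log2 difference of -1.25. Like the members and the other lists, this list was chosen with earlier results of these data known, so its counts are not independent support. Among those that fell, Nrg4 (7.23 and 6.93 in wild type) passed the filter only through the wild-type arrays. Sncg (-2.33 ± 0.23), Aldh1a1 (-2.23 ± 0.31) and Slc7a10 (-2.10 ± 0.14), an amino acid transporter of white fat, fell most. Orm1, an acute-phase protein that fat and liver secrete, read 7.29 and 6.72 in wild type and 9.01, 8.41 and 8.63 in hTNF, and rose by 1.68 ± 0.33. In the list of brown and beige fat, 6 of 8 fell, against 19.6% of all genes, led by Cox8b (-2.0 ± 0.36), Cox7a1 (-1.83 ± 0.35) and Ppargc1a (-1.72 ± 0.17), which skeletal muscle also makes in quantity. Of those that fell, Ppargc1a (8.06 and 7.85 in wild type) and Prdm16 (7.32 and 7.72) passed the filter only through the wild-type arrays. Their lower transgenic values were thus part of how they entered the test. Ucp1, the protein that defines brown fat, was below the filter. Of 13 inhibitors of adipogenesis and precursor markers, 3 fell and 1 rose, shares near or below the 19.6% and 16.5% over all genes. Ccn5 rose by 1.19 ± 0.24, while Hes1 (-0.82), Nr2f2 (-0.65) and Gata2 (-0.50) fell. The call of Hes1 ended without wild type 1 (limma adjusted p = 0.052), that of Nr2f2 without wild type 1 (0.218), wild type 2 (0.0655), hTNF 1 (0.0921) or hTNF 3 (0.0885), and that of Gata2 without any 1 of the wild-type or hTNF arrays or null-labelled 3 (0.0636 to 0.267).

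**Figure D3:**
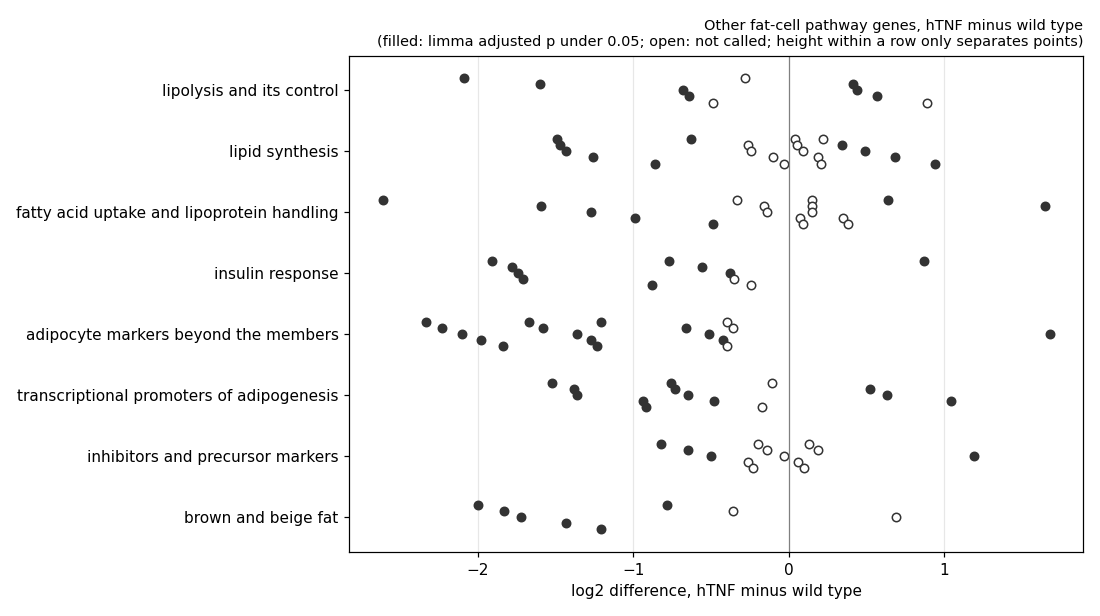
Log2 difference between hTNF and wild type (horizontal axis) for each tested gene of 8 further lists (rows), filled where limma's adjusted p was under 0.05. Most filled points of the adipocyte markers, insulin response and brown and beige lists lie left of 0, while lipid synthesis, with 6 lower and 4 higher, and lipolysis, with 4 lower and 3 higher, have filled points on both sides.

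Markers of other cell types moved between the same groups. The 18 skeletal muscle markers, all above the filter value on every array, averaged 13.99 to 14.04 in wild type and 12.75 to 13.06 in hTNF, with 16 lower. The 14 macrophage markers averaged 10.27 on both wild-type arrays and 11.62 to 11.92 in hTNF, with 12 higher, and 11 of 12 endothelial markers were lower. Over all genes tested, 19.6% were lower and 16.5% higher. The 33 fat-cell genes averaged 10.64 to 10.71 in wild type, 9.32 to 9.44 in hTNF and 8.98 to 9.35 in null-labelled joints. The 8 sebaceous gland genes averaged 6.48 to 6.52 in wild type and 6.26 to 7.49 in hTNF. Only 1 of these 8 was above the filter value on every array. Of the 8, 4 passed the filter and were tested, with 0 called, and a change in the others was not tested. Several of the fat-cell genes, among them Slc2a4, Car3, Cd36, Lpl and Pnpla2, are also made in muscle. The part of these cell types in the fall of the fat-cell genes was not tested.

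**Figure D4:**
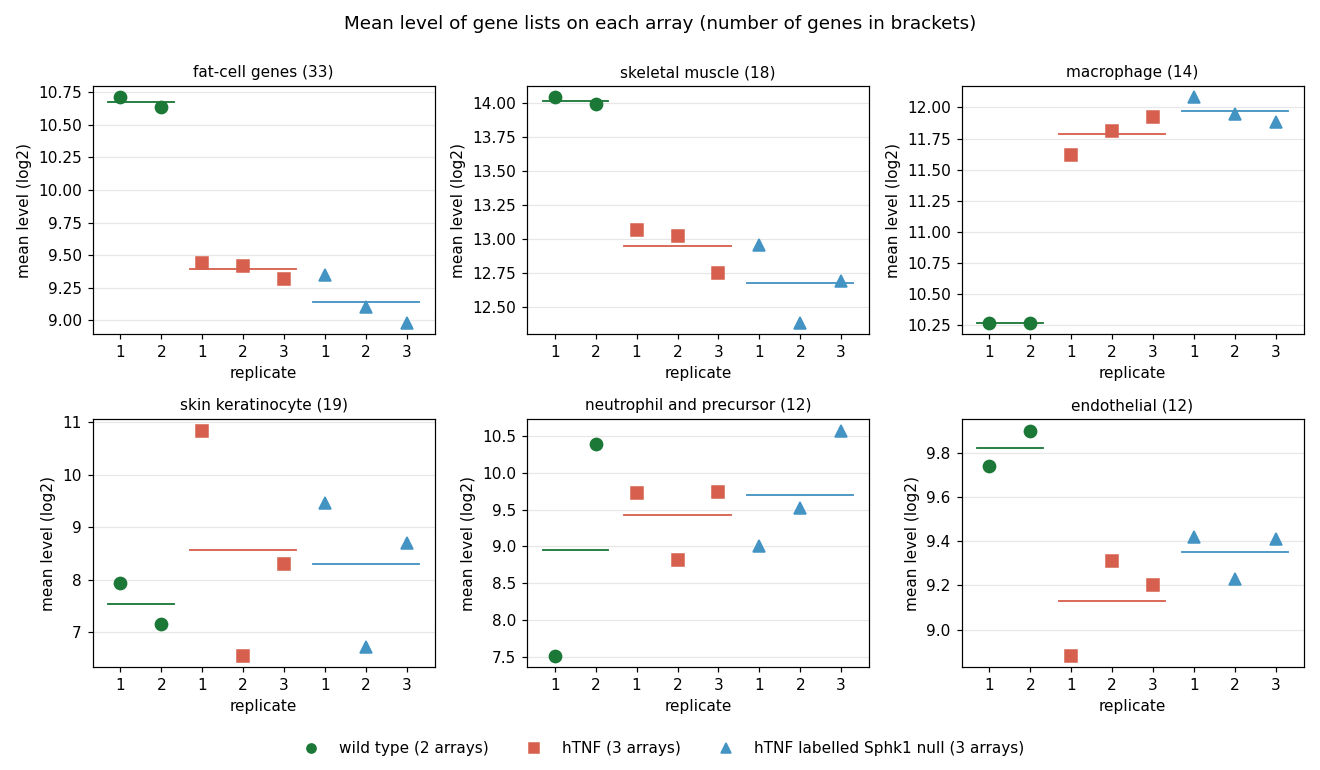
Mean log2 level (vertical axes) of the 33 measured fat-cell genes and of 5 marker lists on each array, with the number of genes in brackets and a line at each group mean. Fat-cell and skeletal muscle genes are lower, and macrophage genes higher, on all 6 transgenic arrays than on both wild-type arrays, while skin and neutrophil levels overlap between groups.

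Whether the null label went with a further change was asked by setting the 3 null-labelled arrays against the 3 hTNF arrays. Of the 32 genes, 0 fell and 0 rose by limma, where 0.0% of all genes fell and 0.0162%, or 2 genes, rose. At an unadjusted p under 0.05, 9 of the 32 were lower, against 3.89% of all genes, and 0 were higher, against 2.39%. Without the 3 arrays of mixed sex-linked signal, again 0 fell and 0 rose. The differences leaned down: 26 of 32 were below 0, against 54.9% of all genes, and the median was -0.27, against -0.02. Every null-labelled array was below every hTNF array in 6 of 32 genes, Adipoq, Pparg, Lpl, Fabp4, Fasn and Gpd1, against 4.91% of all genes, and every one above in 0, against 5.11%. Among the brightest probe sets, the smallest p-values were those of Lpl (-0.55 ± 0.14, unadjusted p = 0.00328, limma adjusted p = 0.54), Adipoq (-0.62 ± 0.18, 0.0065 and 0.582) and Gpd1 (-0.37 ± 0.11, 0.00713 and 0.592). Pparg differed by -0.56 ± 0.17 (limma adjusted p = 0.6). Other probe sets of Car3 and Scd1 had smaller p-values than Lpl, and none was called. For Car3 1 of them gave -1.23 ± 0.23 (2.35-fold, unadjusted p = 0.000405, limma adjusted p = 0.371), with no overlap between the groups, and another -0.49 ± 0.12 (0.00233 and 0.511). For Scd1 the other probe set gave -0.68 ± 0.15 (0.00159 and 0.453). Lep (0.21 ± 0.20) and Cd36 (0.05 ± 0.11) were among the genes above 0. The median moved from -0.39 without null-labelled 1 to -0.21 without null-labelled 3. Muscle markers leaned the same way, with 17 of 18 below 0 and array means of 12.38 to 12.95, and their part in these values was not tested. Sex-linked signal differed too: Xist read 7.29 on hTNF 2 and 11.19 to 13.16 on the other transgenic arrays. With the Y-linked level as a covariate the median was -0.24, and the part of sex-linked signal was not tested. The genes were read on the same arrays, so their counts are not independent of each other.

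**Figure D5:**
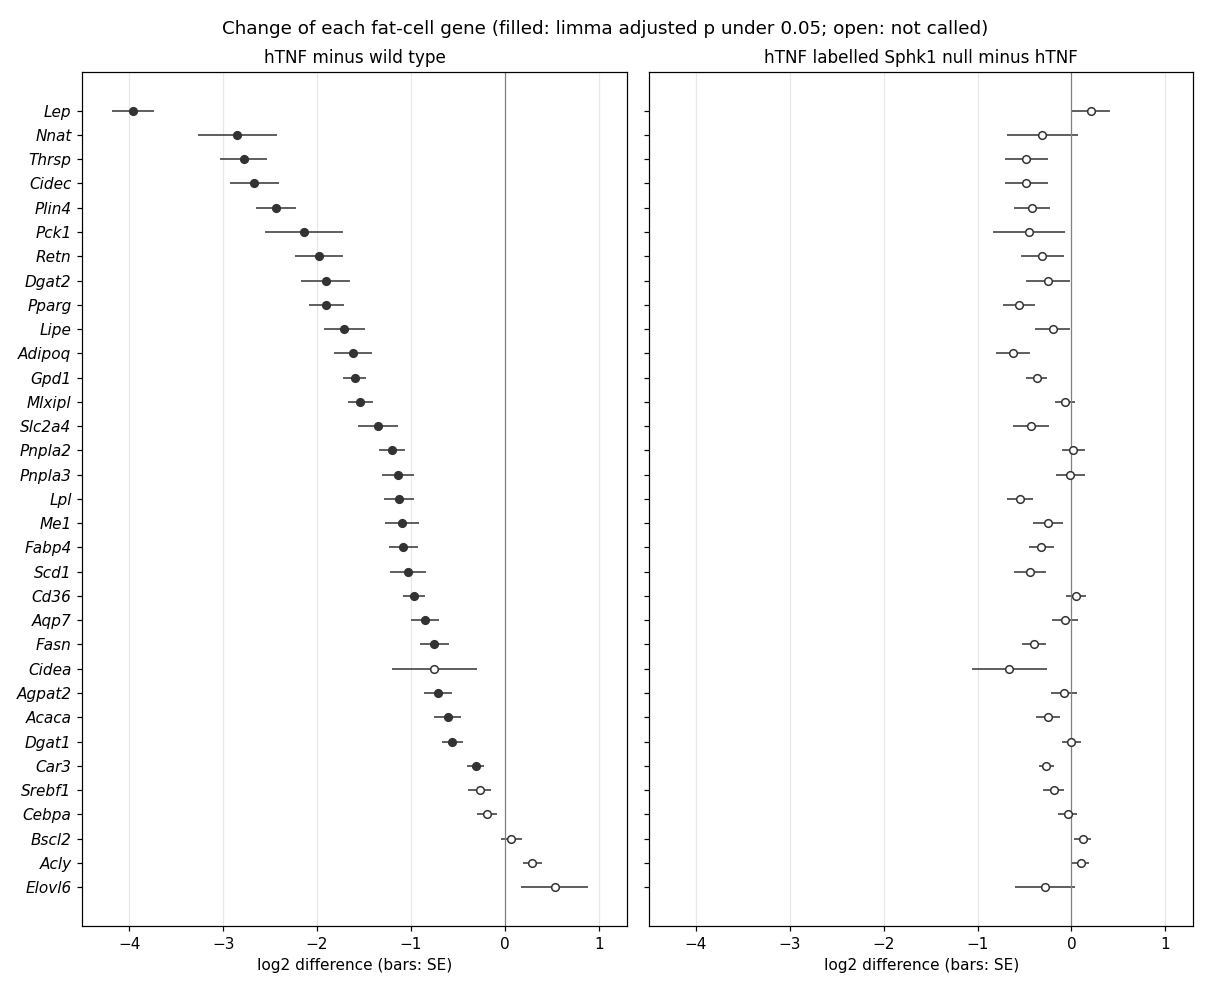
Log2 difference (horizontal axes, bars are SE) of each measured gene for hTNF minus wild type, left, and hTNF labelled Sphk1 null minus hTNF, right, filled where limma's adjusted p was under 0.05, with Aqp7 from the fit without the filter. On the left the points run from -3.96 for Lep to 0.53 for Elovl6, and on the right no point is filled and most lie a little below 0.

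Against the same 2 wild-type arrays, the null-labelled joints showed the fat-cell genes low as well. There 28 of 32 fell and 1 rose, against 23.8% and 19.1% of all genes, with a median of -1.44. Without the 3 arrays of mixed sex-linked signal the median was -1.56. In that comparison sex-linked signal differed between the groups along with the label, and these cannot be told apart. Adipoq differed from wild type by -1.62 in hTNF and -2.24 in null-labelled joints, Pparg by -1.90 and -2.46, Lpl by -1.13 and -1.69, and Lep by -3.96 and -3.76. The gene that rose was Acly, by 0.39 (limma adjusted p = 0.0119), a call that ended without wild type 1 (0.34, 0.0925). Srebf1 (-0.46, limma adjusted p = 0.0128) and Cidea (-1.41, 0.0324) were called here and not in hTNF, and neither was called between the transgenic groups. Both calls ended without wild type 1 (0.103 for Srebf1 and 0.231 for Cidea), and that of Cidea also without null-labelled 2 (0.0895) or null-labelled 3 (0.087). Cebpa (-0.23, limma adjusted p = 0.129) and Elovl6 did not pass the test. Nor did the brightest probe set of Bscl2 (0.19, limma adjusted p = 0.199), although it did under quantile scaling (0.22, 0.0317), and the other probe set of Bscl2 rose by 0.34 (0.0215). Because both transgenic groups were set against the same wild-type arrays, these columns of values are not independent.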

How the data were processed

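RNA from ankle joints was read on 8 Affymetrix arrays. The authors deposited 1 table of log2 values for 45101 probe sets. The submitters' processing notes name Expression Console from Affymetrix together with MAS5 and RMA. The method behind the deposited log2 values is not stated there. Array medians lay between 6.84 and 6.89, and no further scaling was applied. Groups came from the labels.

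Means of the 3 groups were fitted with limma 3.58.1 in R 4.3.3 on the 24115 probe sets above the table median of 6.87 on at least 2 of 8 arrays, with an intensity trend, 5 residual degrees of freedom and Benjamini-Hochberg adjustment over all of them. The call was an adjusted p under 0.05. The fit was tested on simulated data. Differences are on the log2 scale. A gene was read by its brightest tested probe set annotated to it alone. In the annotation, 34945 probe sets had 1 gene, 932 several and 9160 none, and 64 were controls. RefSeq's table of GRCm38.p6 updated symbols and gave promoter sequences. Genes named were up to 4 per role with the largest change, any called against its role, the 3 with the smallest p between the transgenic groups, and up to 3 per further list in each direction. The members and lists were chosen with earlier results of these data known. Alternatives covered filters, scaling, the choice of probe sets, arrays left out and the replicate number as a block. The alternative without the 3 arrays of mixed sex-linked signal was chosen after seeing the data.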

Additional observations from a re-analysis of the deposited data

How the results depend on the processing

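Of 662 values of single genes recomputed for hTNF against wild type, 643 kept direction and side of the threshold, 8 lost the call and 11 gained it. For the 38 named genes of the further lists, 62 of 791 values lost the call, in 13 genes. Calls over all probe sets in this comparison, both directions together, also moved with the setting. They were 7965 in the main fit, 6515 with the replicate number as a block and 9313 without null-labelled 1. Shares of all genes in each direction were not counted for every alternative. The number of members that fell was 24 of 29 under the stricter filter, 24 to 27 of 32 or 33 under other alternatives, leaving out each array among them, and 21 of the 25 genes with a probe set free of the suffixes that mark shared transcripts. The number that rose was 0, and 1 (Acly) under the stricter filter, quantile scaling, the mean of probe sets or without the 3 arrays of mixed sex-linked signal, and 0 to 1 on leaving out each array. Against wild type, null-labelled joints had 25 of 29 lower under the stricter filter, 22 of 25 with the suffix-free probe sets and otherwise 26 to 29 (26 to 28 on leaving out each array) and 0 to 1 higher on leaving out each array, with 2 higher under quantile scaling. Medians on leaving out each array were -1.22 to -1.08, -0.39 to -0.21 and -1.61 to -1.34 for hTNF against wild type, null-labelled against hTNF and null-labelled against wild type. With the replicate number as a block, 26 fell and 0 rose in hTNF, 0 were called between the transgenic groups, and 28 fell and 1 rose in null-labelled joints; in the further lists the block ended the calls of Plin3 (0.052), Slc25a1 (0.0568), Plin2 (0.0878) and Hcar2 (0.0629). Same-numbered arrays correlated at -0.167 to 0.273, above 0 in 5 of 7 pairs, and differently numbered arrays at -0.485 to 0.37. These values do not settle whether the numbers pair the arrays. The labels do not say so, and the main fit left the numbers out. Between the transgenic groups 0 genes were called under every alternative. Uncalled differences there changed sign on leaving out each array for Pnpla3 (-0.17 to 0.09), Elovl6 (-0.52 to 0.13), Pnpla2 (-0.09 to 0.1), Nnat (-0.62 to 0.15) and Agpat2 (-0.21 to 0.01), for Pnpla3 with quantile scaling (0.02), and without the 3 arrays for Pnpla3 (0.14), Pnpla2 (-0.14) and Lep (-0.02). The cause was not tested. Taking the mean of probe sets gave -1.69 for Thrsp and -1.06 for Car3. Wild type has 2 arrays, and Lep, Pck1 and Aqp7 lie near the dim end of the scale in transgenic joints, which limits the precision of their folds.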
